A study of Canis lupus familiaris with 28 samples.

Results

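The genes described here are *STAT6*, *LRP1* and *TGFBI*, chosen by their symbols in the supplementary gene tables. All 3 were found among the 1126 identifiers with a name, out of 32704 identifiers in the count tables. They are ENSCAFG00000000163 (*STAT6*), ENSCAFG00000000178 (*LRP1*) and ENSCAFG00000001091 (*TGFBI*). In the RefSeq assembly UU_Cfam_GSD_1.0, *STAT6* and *LRP1* lie next to each other on dog chromosome 10 with 0 coding genes between them, and *TGFBI* lies on chromosome 11. The counts were made on CanFam3.1, so no coordinates are given.

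Macrophages change their program with the signals around them. *STAT6* encodes the transcription factor that the interleukins IL-4 and IL-13 activate through their receptors, and it turns on genes of alternative activation. *LRP1* encodes a large endocytic receptor of the low-density lipoprotein receptor family, which takes up apolipoprotein E, complexes of proteases with their inhibitors, thrombospondins and dying cells. *TGFBI* encodes a secreted matrix protein that binds collagens and integrins, is induced by TGF-beta and is made by monocytes, macrophages and fibroblasts.

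RNA was measured in frozen histiocytic sarcoma (HS) tumors of 18 Bernese Mountain Dogs (BMDs), of which 15 were labelled HS and 3 were labelled HHS, the hemophagocytic form. HS is a cancer of histiocytes, the cells that include macrophages and dendritic cells, and by the methods a histopathology estimate found most of each sample to be tumor. The 6 controls were 3 blood samples of unaffected BMDs and liver, lung and spleen, 1 library each, of German Shepherds. A separate count table held the HS cell lines BD and OD from BMDs, the line PJ from a Rottweiler and the cell strain DC3F9, which was made from the blood monocytes of a mongrel with GM-CSF and IL-4. DC3F9 is 1 library, labelled unstimulated, and IL-4 is a ligand upstream of STAT6. The labels give no treatment and no age.

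Levels are given in CPM, the reads of a gene scaled to the total count of its library, which compare libraries but not genes, because no gene length was used. The libraries held 99701394 to 180801439 counts in the tumor table and 82007857 to 131518875 in the cell table. The blood libraries carry a different flow cell label from the tumors and organs, so blood and flow cell cannot be told apart, nor can organ and breed. HS51, a spleen tumor, had the highest sum of 3 erythroid markers among tumors, 213 CPM. This sum was 51.2 to 273 CPM in blood and 107 CPM in the spleen control. The differences of *LRP1* and *TGFBI* from the 5 controls and from blood are also given without HS51. The correlation of *STAT6* with *LRP1* was not computed without it. Sums of marker genes differed too: 8 myeloid markers summed to 10765 to 13980 CPM in blood, 1178 to 7684 CPM in tumors, 1871 CPM in spleen and 571 CPM in lung, and 8 lymphoid markers to 947 to 1444 CPM in blood and 39.3 to 331 CPM in tumors. The 6 mesenchymal markers summed to 0.17 to 2.03 CPM in blood and 19.3 to 785 CPM in tumors, with up to 3 of 6 at 0 in a blood library. Myeloid markers summed to 920 to 1579 CPM in the cell lines and 1273 CPM in DC3F9, with none at 0. The part of these cell types in the results was not tested, and in bulk tissue fewer cells of a type and less RNA per cell cannot be told apart.

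*STAT6* was measured at 138 CPM in the lowest tumor (HS27, lung), 241 CPM at the median and 574 CPM in the highest (HS14, thorax). Blood stood at 404, 363 and 306 CPM, spleen at 221 CPM, lung at 156 CPM and liver at 40.5 CPM. The cell lines stood at 279 CPM (BD), 282 CPM (OD) and 277 CPM (PJ), and DC3F9 at 232 CPM. Blood thus had the highest median, 12 of 18 tumors lay below all blood libraries and 1 lay above them. In CPM, tumors overlapped spleen and lung, with 11 of 18 above the spleen value and 15 of 18 above the lung value. All 18 lay above liver. After scaling by TMM factors, edgeR's correction for composition, 13 of 18 lay above spleen and all 18 above lung and above liver. Each organ is 1 library, and the share of all genes with the tumors wholly above it was not computed.

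*LRP1* ran from 201 CPM (HS51, spleen) through a tumor median of 833 CPM to 1852 CPM (HS53, an HHS tumor of the lung). Blood stood at 442, 138 and 183 CPM, spleen at 381 CPM, lung at 197 CPM and liver at 180 CPM. In the cell table the lines stood at 2159 CPM (BD), 2906 CPM (OD) and 2970 CPM (PJ), and DC3F9 at 4071 CPM. The tumor median was the highest in its table, 13 of 18 tumors lay above all blood libraries and above spleen, and none lay below the blood range. In CPM, blood, spleen, lung and liver did not separate from each other, since the spread of blood covered the 3 organs. After TMM scaling liver, at 527 CPM, lay above all blood libraries (142 to 442 CPM), and 11 of 18 tumors lay above liver.

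*TGFBI* had the widest range, from 2.52 CPM (HS14) through a tumor median of 115 CPM to 976 CPM (HS34, leg mass), a ratio of 388. Blood stood at 2635, 1162 and 2088 CPM, spleen at 946 CPM, lung at 109 CPM and liver at 56.6 CPM. The lines stood at 0.788 CPM (BD), 0.988 CPM (OD) and 1.51 CPM (PJ), from 93, 130 and 147 reads, and DC3F9 at 733 CPM, from 60105 reads. All 18 tumors lay below all 3 blood libraries and 17 of 18 lay below spleen. Against lung, 9 lay above and 9 below (12 and 6 after TMM scaling). The order was therefore blood, spleen, then tumors together with lung and liver, which the tumors overlapped.

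**Figure D1:**
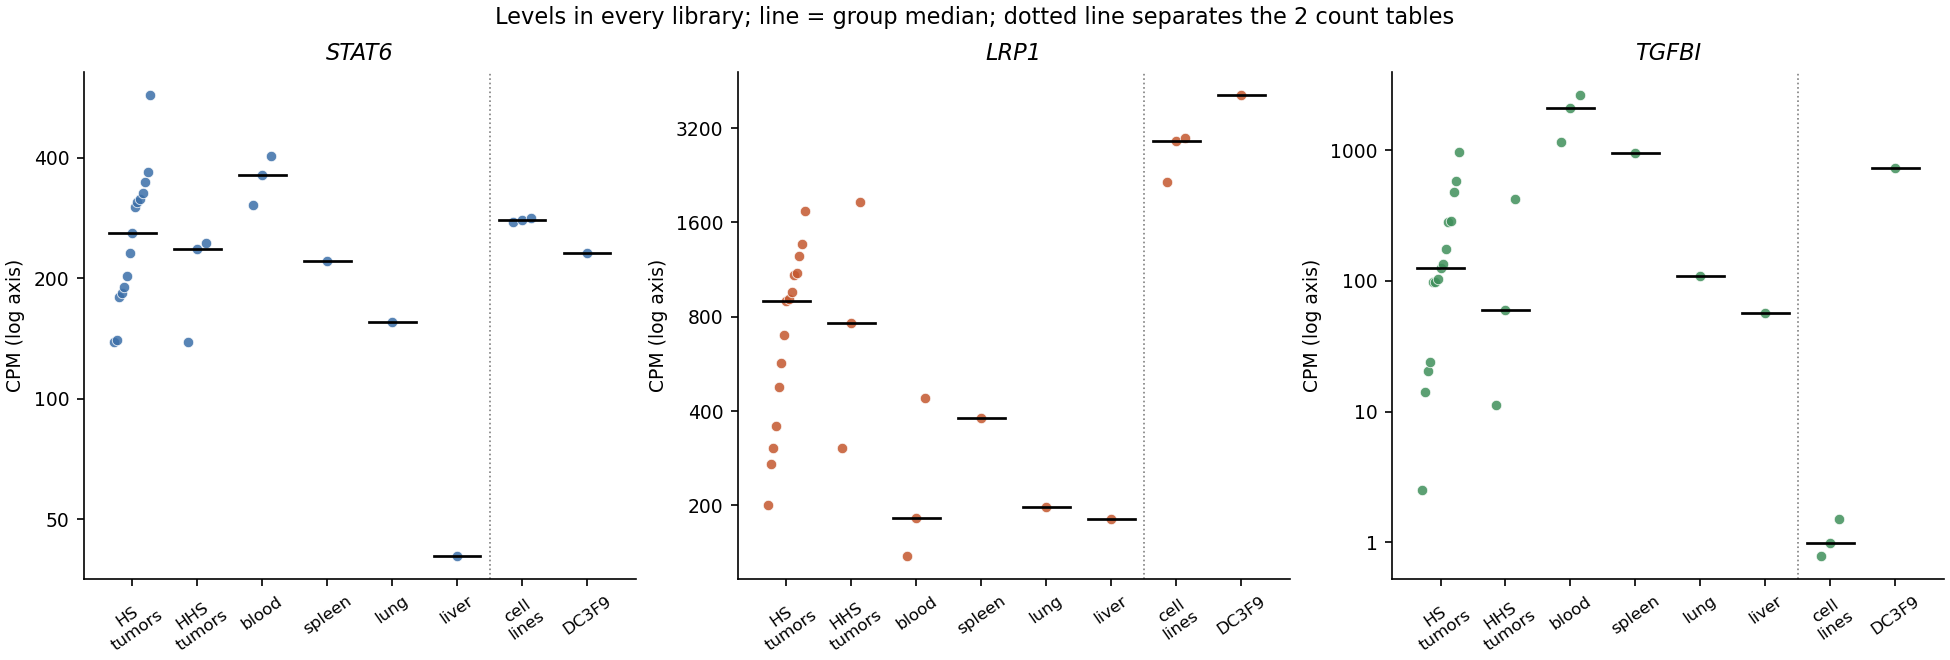
Level of each gene in every library, in CPM on a log axis, by group; points are libraries, black lines are group medians and the dotted line separates the 2 count tables, which are not on a common scale. *STAT6* spans 138 to 574 CPM in tumors around the control values, *LRP1* is highest in tumors within its table, and *TGFBI* is high in blood (1162 to 2635 CPM) and DC3F9 (733 CPM) and near 1 CPM in the lines.

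The first comparison set the 18 tumors against 5 controls (3 blood, lung and spleen), to ask which genes changed in HS. Differences are log2 fold changes (log2FC), positive where the first group is higher, with their standard errors from edgeR's quasi-likelihood test and Benjamini-Hochberg adjusted p over all genes tested. *LRP1* was 3.35-fold higher in tumors (log2FC 1.74 ± 0.49) and *TGFBI* 6.35-fold lower (-2.67 ± 0.76), with adjusted p of 0.0104 and 0.0125 by edgeR. *STAT6* had a log2FC of -0.05 ± 0.32 with an interval from -0.71 to 0.60. The study applied its cutoffs (absolute log2FC over 1.5, adjusted p under 0.0005) to another test, DESeq2. With the same cutoffs on edgeR, 0 of 3 genes were called, beside 0.865% of 19430 genes called higher and 1.91% called lower. At unadjusted p under 0.05 the edgeR test passed 2 of 3, and DESeq2 called 0 of 3 with adjusted p of 0.00109 for *LRP1* and 0.00377 for *TGFBI*.

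With the adjusted p cutoff relaxed to 0.05, *LRP1* counted among the 7.45% of genes called higher and *TGFBI* among the 10.3% called lower. With all 6 controls the log2FC of *LRP1* was 1.49, under the cutoff of 1.5, and that of *TGFBI* was -2.48. Over all alternatives the adjusted p ran from 0.00109 to 0.0364 for *LRP1* and from 0.00377 to 0.0551 for *TGFBI* by edgeR or DESeq2, the last without the blood library 35779. Without HS51 the log2FC were 1.81 and -2.78. In CPM, no tumor lay above the highest control for *TGFBI* and 9 of 18 lay below the lowest, which was lung. For *LRP1*, 13 of 18 lay above the highest control and none below the lowest. Control values of *TGFBI* moved with tissue, and the next 2 comparisons took blood and organs apart.

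Against the blood of BMDs alone, the same breed as the tumors, *TGFBI* was 9.09-fold lower in tumors (log2FC -3.18 ± 0.83, adjusted p = 0.00578 by edgeR). Tumors and blood did not overlap, as for 7.45% of the 20353 genes tested in that direction. *LRP1* was 3.32-fold higher (1.73 ± 0.62, adjusted p = 0.0365 by edgeR). Both passed the cutoffs here (absolute log2FC over 1.5, adjusted p under 0.05), which 16.3% of genes passed upward and 9.09% downward. The call of *LRP1* rested on the blood libraries 35780 and 35116: without either one the edgeR adjusted p was 0.163 or 0.157, and without the filter on low counts it was 0.0514, while blood 35779, at 442 CPM, overlapped 5 tumors. *STAT6* differed by -0.41 ± 0.36, with an interval from -1.14 to 0.33, and did not pass (adjusted p = 0.39 by edgeR).

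Against spleen and lung, which shared the tumors' flow cell but came from another breed, 0 of 3 genes passed. The background was 1.78% of 21533 genes higher and 6.99% lower. *LRP1* again had a positive log2FC, 1.75 ± 0.75, with an adjusted p of 0.155 by edgeR and 0.0482 by DESeq2, so DESeq2 called 1 of 3. *STAT6* had 0.72 ± 0.48 and *TGFBI* -1.14 ± 1.16, with edgeR adjusted p of 0.376 and 0.584. One library set the direction of *TGFBI*: without spleen the log2FC was 1.23, and without lung it was -1.95. At unadjusted p under 0.05, 1 of 3 passed in edgeR. These comparisons share their tumors, and the first shares its controls with the other 2, so they are not independent.

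**Figure D2:**
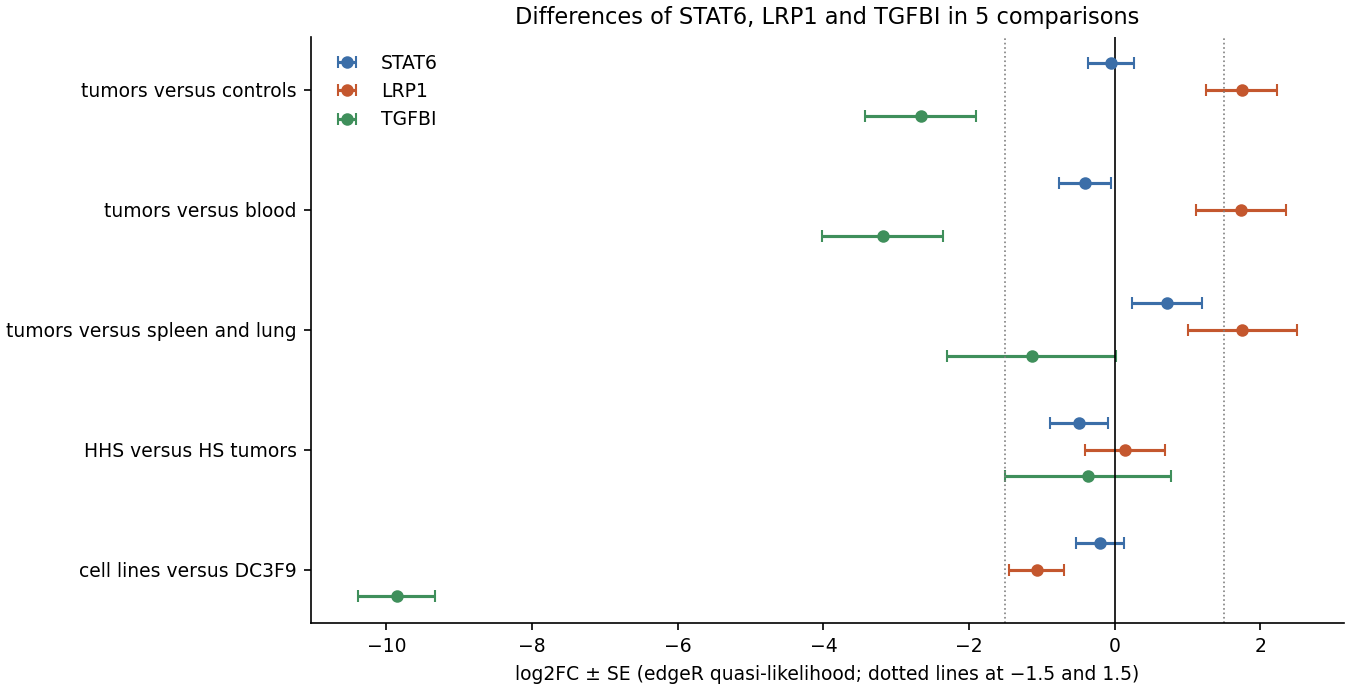
The log2FC of each gene (horizontal axis, points with SE from edgeR) in the 5 comparisons listed on the vertical axis; dotted lines mark an absolute log2FC of 1.5. *LRP1* lies near 1.74 in the 3 comparisons of tumors with controls, *STAT6* stays within 0.72 of 0 in all 5, and *TGFBI* runs from -0.37 in HHS versus HS to -9.85 in cell lines versus DC3F9.

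The site of a tumor was set beside the control of the same organ, as a description with 1 control library each. The share of all genes that lie wholly on 1 side of such a control was not computed. *LRP1* was above the lung control in 6 of 6 lung tumors, with a median of 1031 CPM against 197 CPM. Both spleen tumors, HS51 at 201 CPM and HS29 at 305 CPM, lay below the spleen control at 381 CPM. After TMM scaling HS29 passed above spleen. All 4 liver tumors lay above the liver control in CPM, but only 2 of 4 after TMM scaling, because the liver library had a factor of 0.342.

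*STAT6* was above the lung control in 5 of 6 lung tumors, above the liver control in 4 of 4 liver tumors and below the spleen control in 2 of 2 spleen tumors. The liver count for *STAT6* was the same after TMM scaling, while the lung count became 6 of 6. *TGFBI* did not separate fully from lung or liver: 2 of 6 lung tumors lay above lung in CPM, and 3 of 4 liver tumors above liver. After TMM scaling these counts became 4 of 6 and 1 of 4. Both spleen tumors, at 581 and 104 CPM, lay below the spleen control at 946 CPM on either scale.

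The 3 genes differed in how much they varied between tumors. In log2 CPM after TMM scaling, the SD over 18 tumors was 0.57 for *STAT6*, 0.96 for *LRP1* and 2.19 for *TGFBI*, against a median of 1.02 over 19430 genes. *STAT6* thus varied less than most genes and *TGFBI* more than 92.4% of them. By mean level *STAT6* stood at percentile 97.3, *LRP1* at 99.2 and *TGFBI* at 90.9, and the SD was not compared among genes of like level. HS14, a tumor of the thorax, held both the highest *STAT6* and the lowest *TGFBI*, and it also had the highest sum of myeloid markers, 7684 CPM. *LYZ*, the lysozyme gene, made up 7222 CPM of that sum, while HS14 was the lowest tumor for the markers *CSF2RB* (39.7 CPM) and *CYTH4* (102 CPM). HS51 held the lowest *LRP1* and, after HS34, the highest *TGFBI*, 581 CPM. Without HS51, a setting chosen after the data were seen, the calls of *LRP1* and *TGFBI* against blood stood, at log2FC 1.77 and -3.34.

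*TGFBI* fell below 25 CPM in 5 tumors of different sites. These were HS14 and HS37 of the thorax (2.52 and 20.6 CPM), HS36 of the liver (14.2 CPM), HS47 of the lung (23.8 CPM) and the HHS tumor HS53 of the lung (11.2 CPM). The remaining 13 tumors ran from 59.7 CPM (HS41) to 976 CPM (HS34). The tumors of the shoulder and leg, HS39 and HS34, stood at 481 and 976 CPM, among the 4 highest.

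**Figure D3:**
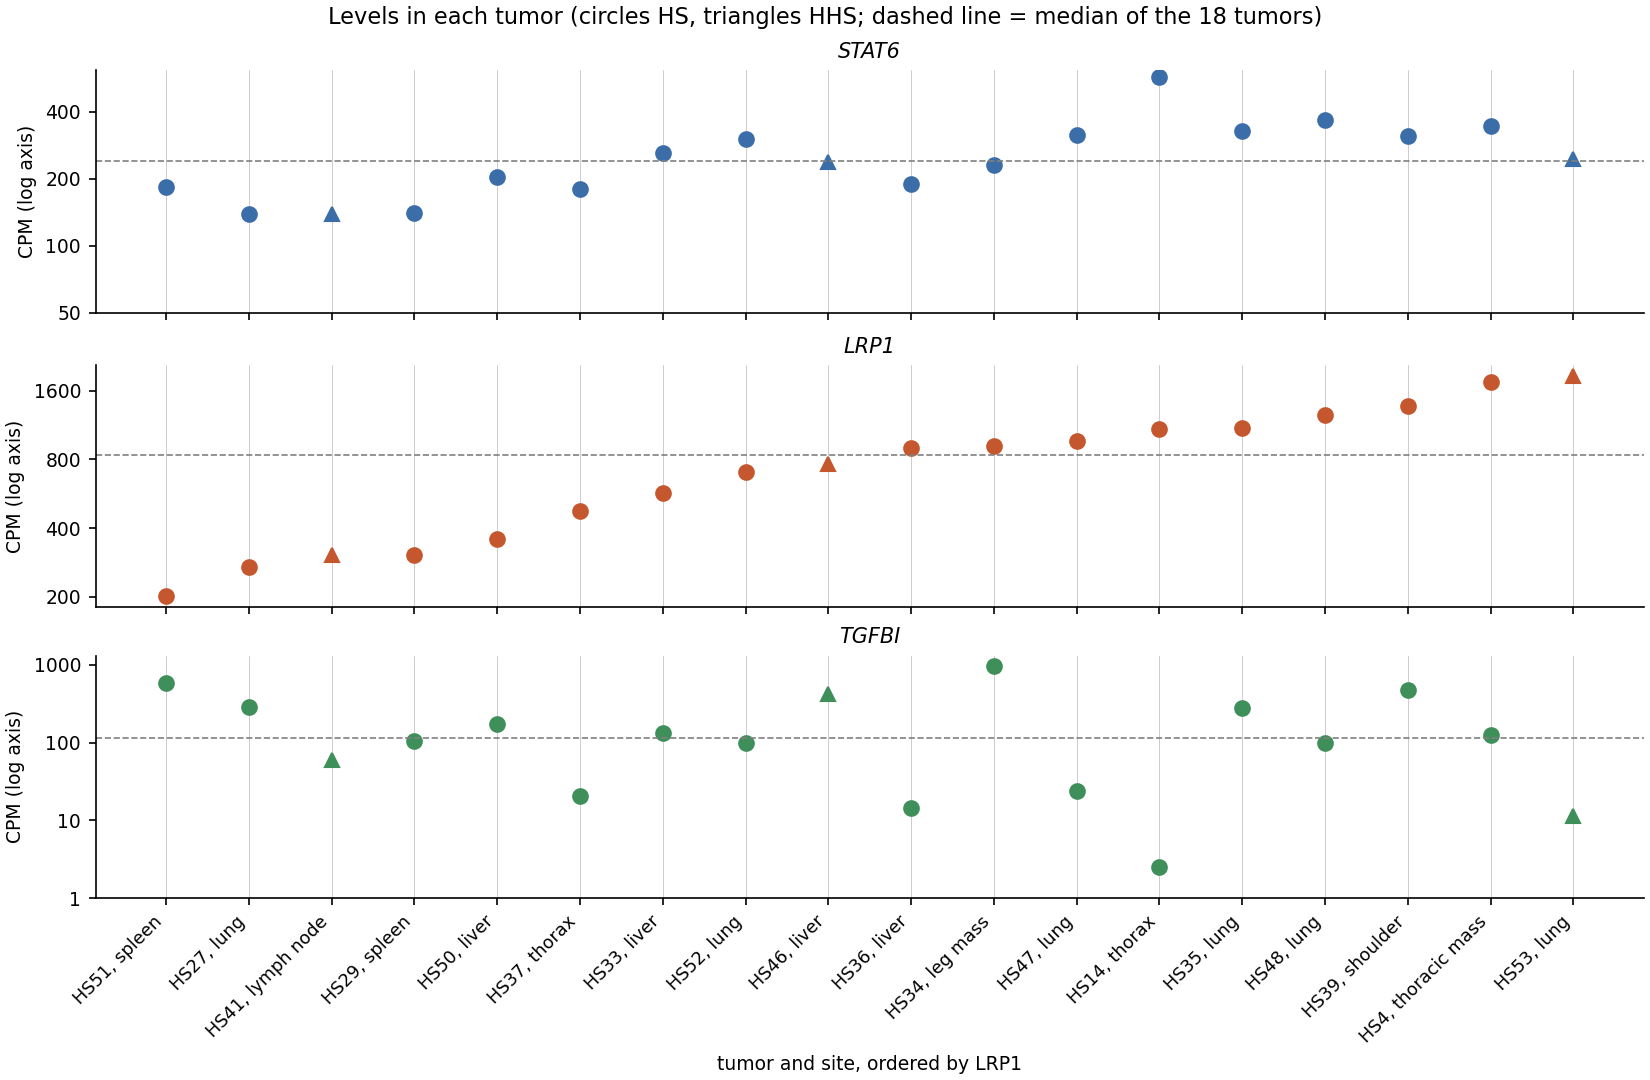
Level of each gene in the 18 tumors, in CPM on log axes, with tumors and their sites ordered by *LRP1*; circles are HS, triangles HHS, and the dashed line is the tumor median. *STAT6* tends to be low where *LRP1* is low (HS51 to HS37), while *TGFBI* shows tumors from 2.52 to 976 CPM across the order.

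Over the 18 tumors, *STAT6* and *LRP1* rose and fell together (Pearson r = 0.74, Spearman rho = 0.78, on log2 CPM). The permutation test with 100000 resamples, two-sided, gave p = 0.0005 for r and 0.00019 for rho, or 0.0015 and 0.00057 after adjustment over the 3 pairs tested. Without HS14 and HS41, the tumors farthest from the *STAT6* median, r was 0.80. In the 15 HS tumors alone r was 0.78. All tumors shared a flow cell label, so no batch could be taken apart, and the labels give no other.

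*STAT6* and *TGFBI* had r = -0.44 and rho = -0.28, with permutation p of 0.068 and 0.251 (adjusted 0.102 and 0.251). Without HS14 and HS41 r was -0.14 while rho stayed at -0.28, so the value of r rested on those tumors. *LRP1* and *TGFBI* had r = -0.38 and rho = -0.37, with permutation p of 0.119 and 0.132 (adjusted 0.119 and 0.198), and r = -0.35 without HS51 and HS41.

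**Figure D4:**
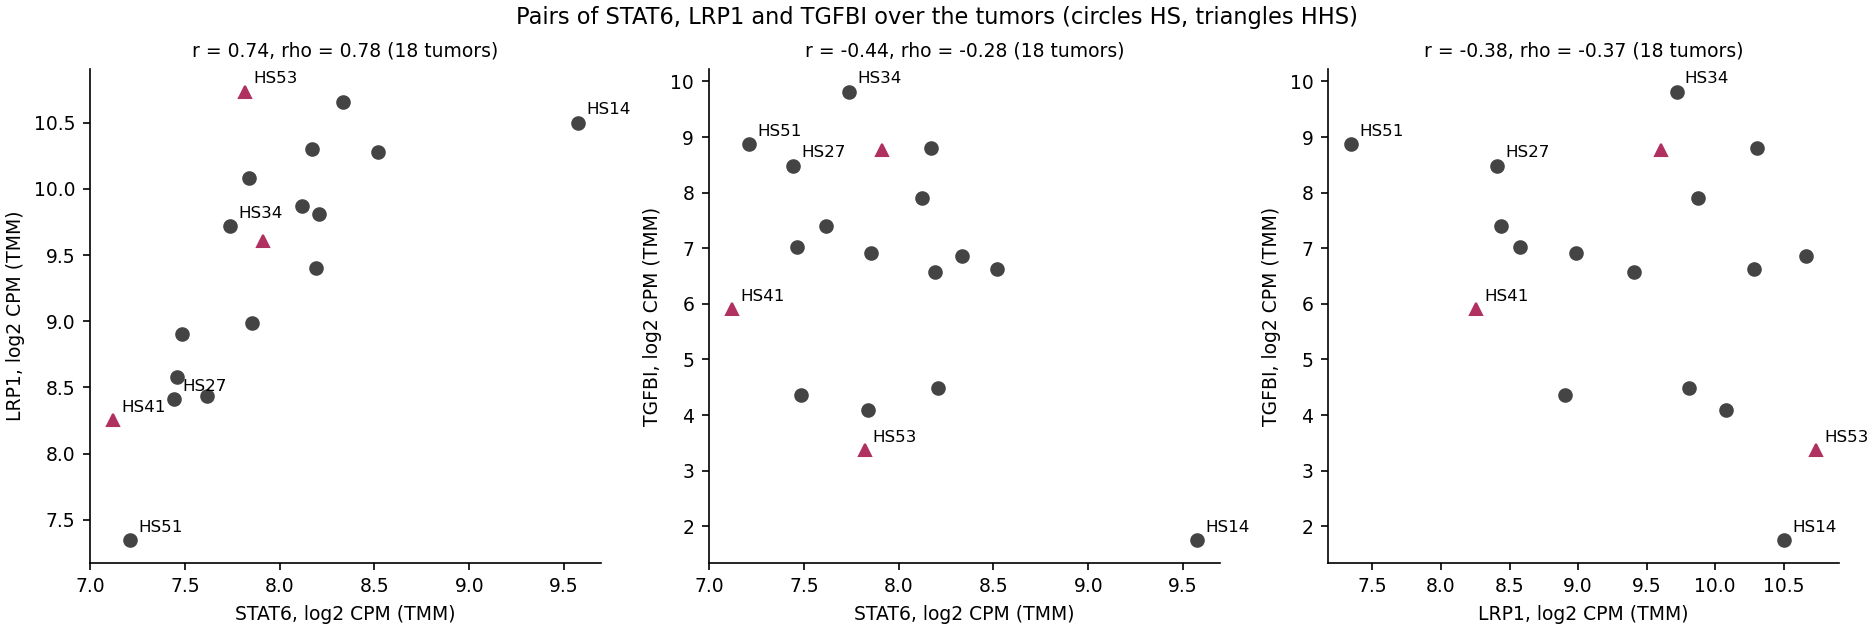
Each pair of genes over the 18 tumors, in log2 CPM after TMM scaling on both axes; circles are HS and triangles HHS. *STAT6* and *LRP1* rise together (r = 0.74), and HS14 is the lowest point in both panels with *TGFBI*.

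The named genes whose pattern over the tumors was most like each of the 3 are given as a description, with r over 18 tumors that differ in depth and in marker sums, out of 997 named genes. For *STAT6* they were *MGST3*, a microsomal glutathione transferase (r = 0.82), *NAB2*, a repressor of EGR transcription factors (0.75), and *LRP1* (0.74), and the most opposed was *REEP2* (-0.77). *NAB2* lies beside *STAT6*, and HS14 was the highest tumor for both. Its rho with *STAT6* was 0.42, below its r. In the RefSeq assembly *NAB2* and *STAT6* do not overlap, but the counts were made on CanFam3.1 with an annotation release that is not given. The strand option of the counting is not given in the sources used here either, so reads of neighboring or overlapping genes may be shared.

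For *LRP1* they were *HLA-DPB1*, a class II antigen presentation gene (0.74), *STAT6* (0.74) and *SMARCC2*, a subunit of a chromatin remodeling complex (0.74). The most opposed was *TSPAN33* (-0.76). For *TGFBI* they were *FGD2*, a guanine nucleotide exchange factor of phagocytes and one of the myeloid markers (0.82), *PARVG*, an adhesion protein of blood cells (0.81), and *GPR31* (0.81), with *RNF41* the most opposed (-0.80). The median absolute r over named genes was 0.204 to 0.209.

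HHS was compared with HS because the hemophagocytic form involves macrophages that engulf blood cells. The 3 HHS tumors, HS41, HS46 and HS53, stood at 139, 237 and 246 CPM for *STAT6*, at 304, 767 and 1852 CPM for *LRP1* and at 59.7, 427 and 11.2 CPM for *TGFBI*. These values fell inside the HS range, with the exception of *LRP1* in HS53, which lay above all 15 HS tumors. After TMM scaling *STAT6* in HS41, at 135 CPM, lay below all 15 HS tumors, the lowest of which was HS51 at 144 CPM. The log2FC was -0.48 ± 0.40 for *STAT6*, 0.14 ± 0.55 for *LRP1* and -0.37 ± 1.14 for *TGFBI*. The intervals ran from -1.31 to 0.34, from -1.01 to 1.28 and from -2.74 to 2.01, so differences of over 2-fold were not excluded for any of the 3. edgeR called 0% of 19853 genes in either direction and 0 of 3 here, with 0 of 3 at unadjusted p under 0.05, and DESeq2 called 0 of 3.

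The cell lines were compared with DC3F9, the study's non-cancerous reference for them. *TGFBI* was 926-fold lower in the lines (log2FC -9.85 ± 0.53, edgeR), and all 3 lines were lower than DC3F9, as for 19% of the 18121 genes tested. The adjusted p was 0.0539 by edgeR, where it equalled the lowest of all genes, and 1.4e-43 by DESeq2. Both take their spread from the 3 lines and assume that the lone DC3F9 library varies like them. *LRP1* was also lower in all 3 lines (-1.07 ± 0.38, 2.10-fold, adjusted p = 0.294 by edgeR), from a high level in both. *STAT6* had a log2FC of -0.20 ± 0.33 after TMM scaling and 0.27 by library size alone. In CPM it was higher in all 3 lines than in DC3F9, as for 46.3% of genes.

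edgeR called 0% of genes higher and 0% lower with 1 reference library, hence 0 of 3, with 2 of 3 at unadjusted p under 0.05, and DESeq2 called 1 of 3. The median log2FC over all genes was 0.23 with TMM factors and 0.69 by library size, so relative to the median *STAT6* was lower on both scales. The part of culture conditions in these values was not tested. The 3 lines agreed closely for *STAT6*, with an SD of 0.01 in log2 CPM, and less so for *LRP1* (0.26) and *TGFBI* (0.48).

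Genes with related roles, from the lists of named genes, are given by counts for the tumors against the 5 controls and against blood. The list for alternative activation includes *IL4* and *IL13*, whose products are upstream of STAT6, so its counts do not describe targets of STAT6 alone. Of its genes 4 of 5 were tested, and *IL4* was too low. None passed against controls, with 2 of 4 positive and a median log2FC of 0.29 (all genes -0.01). The largest values were -3.16 ± 0.97 for *IL13*, a ligand upstream of STAT6, and 1.75 ± 0.33 for *PPARD*, a lipid-sensing nuclear receptor. *IL13* stood at 0 to 0.183 CPM in tumors, at 0 to 0.061 CPM in blood, at 0.169 CPM in lung, inside the tumor range, and at 2.78 CPM in spleen. Against spleen and lung *IL13* fell (-4.47 ± 1.03) and *PPARD* rose (1.77 ± 0.54), with edgeR adjusted p of 0.00738 and 0.042. *PPARD* ran from 35.5 to 167 CPM in tumors and from 29.8 to 37.3 CPM in blood, and it rose against blood (1.73 ± 0.43, edgeR adjusted p = 0.00436).

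Of 10 genes of classical activation, 1 fell and 0 rose against controls, beside 1.91% and 0.865% of all genes, with a median log2FC of 0.36. It was *SOD2*, the mitochondrial superoxide dismutase that inflammatory signals induce (-3.49 ± 0.43, edgeR adjusted p = 1.4e-05). *SOD2* stood at 1433 to 3554 CPM in blood and at 46.6 to 322 CPM in tumors. Spleen, at 139 CPM, and lung, at 191 CPM, lay inside the tumor range. Against blood 2 of 10 fell, beside 9.09% of all genes, *SOD2* (-4.17 ± 0.30) and *IL23A* (-2.24 ± 0.40), a subunit of interleukin 23. None of the 10 rose, and the median was 0.08 beside 0.44 over all genes. Against spleen and lung 0 of 10 passed, with 9 of 10 positive and a median of 1.24 (all genes 0.08).

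Of 5 relatives and ligands of LRP1, 0 passed against controls and 5 of 5 were positive, with a median log2FC of 0.72. Against blood 4 of 5 rose, beside 16.3% of all genes, with a median of 1.96 (all genes 0.44). They were *THBS2*, a thrombospondin of the matrix (8.43 ± 1.55), *LRP12* (2.19 ± 0.78), *PDGFB*, a growth factor (1.96 ± 0.65), and *LRP11* (1.73 ± 0.49). *THBS2* is also one of the mesenchymal markers and stood at 0.0222 to 0.657 CPM in blood. With spleen and lung as controls, 0 of 5 passed and 3 of 5 were positive. *PDGFB* stood at 105 CPM in lung, above the highest tumor at 88.8 CPM. *LRP12* stood at 11.9 CPM in spleen and 10.6 CPM in lung, above its tumor median of 5.36 CPM. The tumor medians of *THBS2* (72.6 CPM) and *LRP11* (71.8 CPM) lay above both organs. The fifth gene, *SERPINB2*, a protease inhibitor, stood at 0.0072 to 11.7 CPM in tumors. In the cell lines it stood at 492 to 857 CPM, against 1.16 CPM in DC3F9 (log2FC 8.65 ± 0.77, adjusted p = 0.0918 by edgeR).

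Of 6 genes of the TGF-beta family and its signaling, 0 passed against controls, with a median log2FC of -0.35. *GDF11*, a ligand of the family, had 1.25 ± 0.63, and *NEDD4L*, a ubiquitin ligase that limits the signal, had -1.14 ± 0.45. Against blood 1 of 6 rose, beside 16.3% of all genes, *GDF11* (3.52 ± 0.74, edgeR adjusted p = 0.00106). It stood at 0.37 to 1.21 CPM in blood and 2.30 to 25.9 CPM in tumors. Against spleen and lung 1 of 6 fell, beside 6.99% of all genes, *NEDD4L* (-1.95 ± 0.57).

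Of 13 other genes of the extracellular matrix, 0 passed against controls, with 5 of 13 positive and a median log2FC of -0.46. The largest values were 4.26 ± 1.19 for *THBS2* and -2.92 ± 0.75 for *FREM1*. Against blood 8 of 13 rose and 2 fell, beside 16.3% and 9.09% of all genes, while *TGFBI*, itself a matrix gene, fell. The largest rises among genes detected in blood were those of *FBLN1*, *THBS2* and *LAMA2*, all mesenchymal markers (8.62 ± 1.95, 8.43 ± 1.55 and 8.41 ± 1.81). *CTHRC1* was at 0 reads in 3 of 3 blood libraries and at 0.0331 to 37.9 CPM in tumors. Against spleen and lung, 0 of 13 rose and 2 fell, beside 1.78% and 6.99% of all genes. These were *FREM1* (-3.33 ± 1.01) and *SMOC2* (-3.18 ± 0.82).

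The neighbors of the genes on their chromosomes were read in the order of the RefSeq assembly UU_Cfam_GSD_1.0. *LRP1* and *STAT6*, side by side, had different log2FC (1.74 and -0.05). Around them 9 neighbors were tested, 8 of which the assembly table places there, with a median log2FC of 0.81 against the 5 controls. None passed upward and 1 of 9 passed downward, beside 0.865% and 1.91% of all genes. It was *TAC3*, a tachykinin gene (-4.98 ± 0.91, edgeR adjusted p = 0.000452). *TAC3* stood at 17.5 to 105 CPM in blood and at 0.0424 to 17.2 CPM in tumors, with HS51 the highest tumor.

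The gene beside *STAT6*, *NAB2*, had 2.07 ± 0.40 with an adjusted p of 0.000708 by edgeR, short of 0.0005. All 18 tumors (38.9 to 208 CPM) lay above all 5 controls (8.9 to 31.4 CPM), as for 1.16% of genes. Against blood *NAB2* (2.57 ± 0.51) and *SHMT2*, an enzyme of serine metabolism (2.18 ± 0.54), rose. *NDUFA4L2*, a mitochondrial protein gene, was at 0 reads in 3 of 3 blood libraries and at 2.48 to 349 CPM in tumors.

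Around *TGFBI*, 9 of 11 neighbors were tested, with a median log2FC of -0.10. None passed against controls. The largest values were those of *TRPC7*, an ion channel gene (6.07 ± 2.04), and *CXCL14*, a chemokine gene (6.05 ± 1.60), opposite in sign to *TGFBI*. *SMAD5*, the nearest neighbor, had -0.33 ± 0.43. Against blood 2 of 9 rose, beside 16.3% of all genes, *TRPC7* (7.19 ± 2.72) and *CXCL14* (6.46 ± 2.11). *TRPC7* was at 0 reads in 2 of 3 blood libraries and ran from 0 to 16.6 CPM in tumors, so its fold depends on the fit. *CXCL14* stood at 0.0993 to 97.9 CPM in tumors and 0.0599 to 0.458 CPM in blood.

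**Figure D5:**
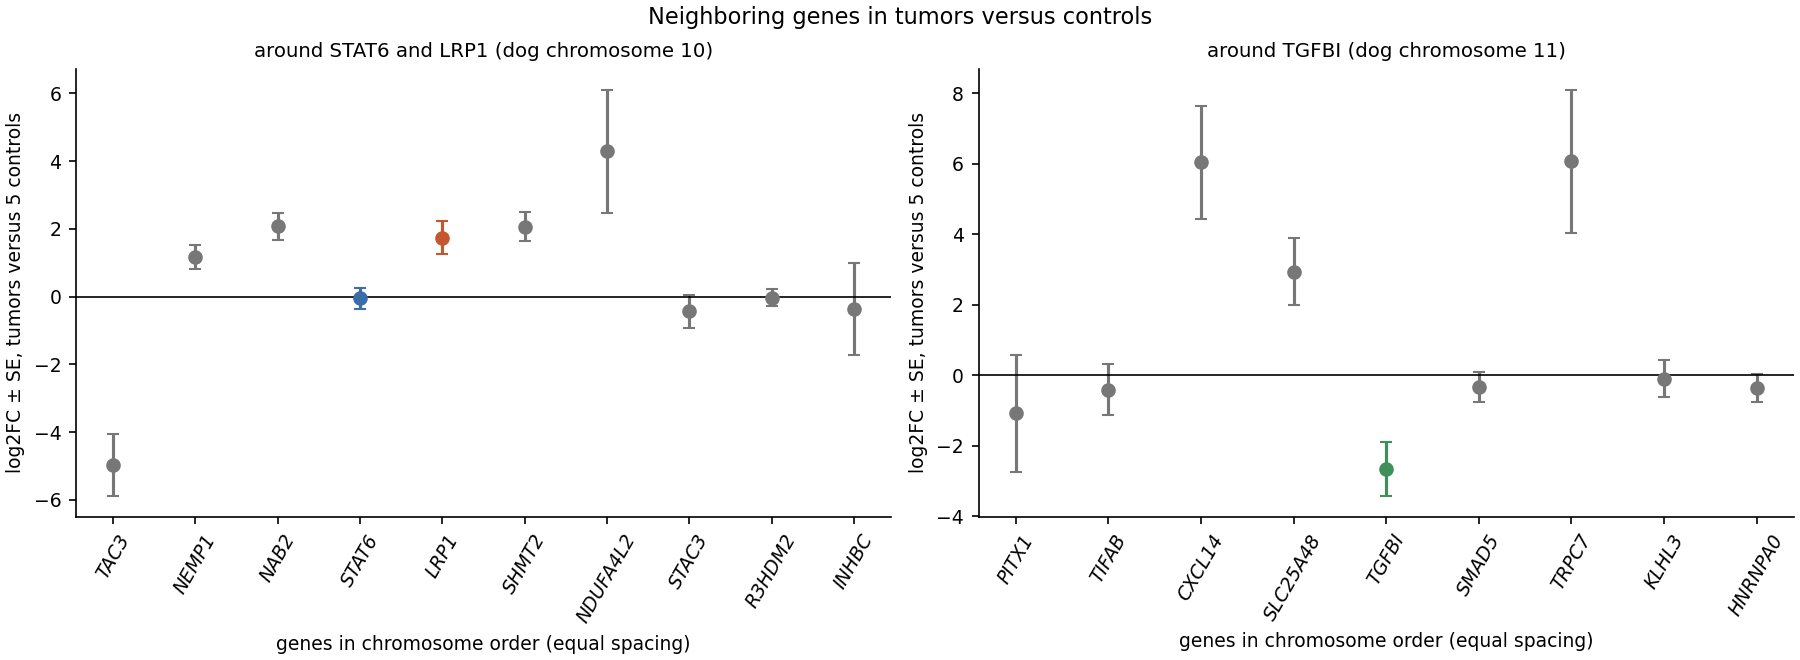
The log2FC of neighboring genes in the 18 tumors versus 5 controls (vertical axis, points with SE from edgeR), in chromosome order with equal spacing, around *STAT6* and *LRP1* (left) and *TGFBI* (right). *STAT6*, at -0.05, lies between *NAB2* at 2.07 and *LRP1* at 1.74, and *TGFBI*, at -2.67, is the lowest gene of its panel.

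In HHS against HS and in the cell lines against DC3F9, 0 genes of these lists passed in edgeR. The medians in HHS against HS were -0.08 for alternative activation, 0.11 for classical activation and -0.93 for the matrix genes, beside -0.11 over all genes.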

How the data were processed

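The authors trimmed the reads with cutadapt 3.7, checked them with FastQC 0.11.9, aligned them to CanFam3.1 with STAR 2.7.10a and counted them per gene with HTSeq 2.0.0, per the labels, and deposited raw counts without normalization or filter. The annotation release and the strand option of the counting are not given in the sources used here. The labels name a total RNA kit with globin depletion, while the methods name an mRNA kit for the cells, so the 2 count tables were never tested against each other.

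From the deposited counts, CPM used the total count of each library, in which 3 counts are 0.0166 to 0.0301 CPM in the tumor table and 0.0228 to 0.0366 CPM in the cell table, for counting error only. Differences were tested with R 4.3.3 and edgeR 4.0.16 (TMM, filterByExpr, quasi-likelihood test, Benjamini-Hochberg over all genes tested), whose SE is the absolute log2FC over the root of F and whose intervals are 95%. The study left out 1 outlying control, and which one was not read from the sources used here. The liver control was left out of the first comparison here, and the fit with all 6 controls is an alternative. DESeq2 1.42.0 was the alternative test, while the study's own test was DESeq2 1.20. Correlations used log2 CPM with a prior count of 2, and figures and permutations used Python 3.11.15, numpy 2.4.6, pandas 2.3.3, scipy 1.17.1 and matplotlib 3.10.9. The tests were tested on simulated counts.

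Names came from the supplementary tables (1025 dog symbols and 101 human homologs only), and the RefSeq table matched 0 Ensembl identifiers, so genes were matched to it by symbol. No pair of libraries of a group was a duplicate (smallest chi-square per gene 721). By the paper the 18 tumors came from 18 affected dogs, while the labels do not tie the control libraries to single dogs. The p-values measure the spread between these libraries, which may be technical in part.

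The genes, lists and tests were chosen with earlier results of these data known. Genes are named if they are one of the 3, among the 4 largest absolute log2FC of a list past the cutoffs, or the largest 2 where none passed, and, for likeness, the 3 highest and 1 lowest r. *SMAD5* and *IL4*, the tumors with low *TGFBI*, and some rule genes in comparisons where the rule did not name them were described after their values were seen. Alternatives were other size factors, filters, tools and cutoffs, fits with the liver or with HS tumors only, and fits that lacked 1 library.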

Additional observations from a re-analysis of the deposited data

Results flagged for a closer look

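Set beside the control of their own organ, the tumors of some organs lay all above it and those of others all below it, in CPM. For *LRP1*, 6 of 6 lung tumors lay above lung (ratio of the tumor median to the control 5.23) and 4 of 4 liver tumors above liver (3.701), while 2 of 2 spleen tumors lay below spleen (0.663). For *STAT6*, 4 of 4 liver tumors lay above liver (5.44) and 2 of 2 spleen tumors below spleen (0.732). The difference between organs was not tested, and each organ had 1 control library of another breed. The share of all genes that separate in this way was not computed. With 2 spleen tumors and 1 library, lying all on 1 side is easily met. After TMM scaling the *LRP1* ratios were 5.85 for lung, 1.18 for liver and 0.816 for spleen, with 1 of 2 spleen tumors above the control. The *STAT6* ratios were then 1.89 for liver and 0.838 for spleen, with 2 of 2 spleen tumors still below.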

How the results depend on the processing

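Of 156 alternative values of the 3 genes, 138 kept their direction and their side of the cutoffs. In tumors versus controls, *STAT6* turned positive with all 6 controls (0.075), and leaving out 1 control moved it from -0.23 to 0.10. With an adjusted p under 0.05, *LRP1* (1.74) and *TGFBI* (-2.67) passed. *LRP1* versus blood lost its call without a filter on low counts (1.70, edgeR adjusted p = 0.0514), and ran from 1.45 to 2.47 as 1 blood library was left out, losing the call without 35780 or 35116. Versus spleen and lung, *LRP1* passed in DESeq2 (1.74), and *TGFBI* ran from -1.95 without lung to 1.23 without spleen. In HHS versus HS, *LRP1* ran from -0.60 to 0.55 and *TGFBI* from -2.61 to 0.19 as 1 HHS tumor was left out, and *TGFBI* was 0.65 in lung and liver tumors only. In the cell lines, *TGFBI* passed in DESeq2 (-9.89) and without a filter (-9.83), and *STAT6* was 0.27 by library size. The r of *STAT6* and *TGFBI* was -0.58 in HS tumors only, with a permutation p adjusted to 0.0395. There rho was -0.51 (permutation p adjusted to 0.081). Without HS14 and HS48 r was -0.19 and rho -0.37, so the value of r rested on those tumors.

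Of all genes, 539 were called in tumors versus controls, and 1721 by DESeq2, 336 in HS tumors only, 3457 at an adjusted p under 0.05 and 222 to 581 without 1 control. DESeq2 called 53.3% of them higher, edgeR 31.2%. Versus blood 5159 were called, and 3286 to 4029 without 1 library. Versus spleen and lung 1889 were called (20.3% higher), 3071 by DESeq2 (43.1%), 3450 with liver added (31.9%) and 257 to 1560 without 1 organ. In HHS versus HS 0 were called, 1 by DESeq2 and 4 without a filter, and in the cell lines 0, 1796 and 28. Scaling by library size moved the median log2FC of all genes from -0.01 to -0.13 versus controls and from 0.08 to -0.15 versus spleen and lung. The cause of these changes was not tested. No paired analysis was possible because the labels give no replicate numbers, and the sample numbers in the titles that recur across groups do not mark a shared animal or batch.

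Blood with its flow cell, the breed of the organ controls, 1 library per organ and 1 DC3F9 library limit these comparisons. The 3 genes had at least 93 reads in every library.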
